A study of Homo sapiens with 10 samples.

Results

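The semaphorins, plexins and neuropilins were taken from a table of 27142 genes by their symbols: semaphorin genes of classes 3 to 7, plexin genes A to D, the plexin-domain-containing genes PLXDC1 and PLXDC2, and the neuropilin genes NRP1 and NRP2. The rule found 33 genes, of which 20 were semaphorins, 9 plexins, 2 plexin-domain-containing genes and 2 neuropilins. They were measured by RNA-seq in 697 cells, an established human pre-B acute lymphoblastic leukaemia line. The parental line was used in all 4 RNA libraries, 2 of which came from cells given TPA, the phorbol ester used to switch on protein kinase C, at 0.5 µg/ml, and 2 from control cells. The labels give the length of treatment only as a range from 0 to 24 h and name no vehicle for the controls. A further 6 ChIP-seq and input samples of the series, 3 of them from a 697 line with inducible tagged NAP1, were not analysed here.

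Semaphorins are secreted or membrane-bound proteins that carry a sema domain, and plexins are their main receptors. Class 3 semaphorins are secreted and mostly need a neuropilin as co-receptor beside an A plexin or plexin D1, whereas classes 4 to 6 span the membrane and class 7 is held by a lipid anchor. Plexins act through a cytoplasmic GTPase-activating domain on Ras-like proteins and through other small GTPases, which change adhesion and the cytoskeleton. First described in axon guidance, the system is also known in lymphocytes, where SEMA4D (CD100), SEMA4A and SEMA7A (CD108) are immune semaphorins.

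Values were in RPKM, which corrects for the length of a transcript and the size of a library, so that levels can be set side by side between genes. The RPKM values summed to 349438 and 388846 in the TPA libraries and to 370558 and 386700 in the control libraries. The commonest ratio of low values between libraries put the depth of the others at 91.3% to 97.8% of that of control replicate 1. The absolute read totals are unknown. Of 10 pre-B marker genes, all 10 had at least 1 RPKM in both control libraries and 9 in both TPA libraries, and their summed level was 1200 to 1350 RPKM with TPA and 2090 to 2100 RPKM in control. The part of these markers in the results was not tested. Markers of T cells (0 of 7 at 1 RPKM or more in both libraries of either group) and of erythroid cells (0 of 5) were near 0. Single genes of the other marker lists moved with TPA: PDGFRB alone carried the fibroblast list (223 to 273 RPKM summed with TPA, 9.39 to 10.5 RPKM in control), with LUM at 0 and 5 of its 6 genes under 1 RPKM in every library. Likewise TIE1 and PECAM1 were the 2 of 7 endothelial genes at 1 RPKM or more with TPA (summed 5.46 to 7.92 RPKM, against 0.458 to 0.695 RPKM in control), and CSF1R was the 1 of 8 myeloid genes (summed 3.19 to 3.99 RPKM, against 0.667 to 1.01 RPKM in control), with S100A8 at 0. The plasmacytoid dendritic list, in which CLEC4C and IL3RA were at 0, summed to 31.3 to 44.4 RPKM with TPA and 39.9 to 52.3 RPKM in control. LAMP5, which fell (17.9 and 30.6 RPKM with TPA, 37.5 and 49.8 RPKM in control), made up most of that sum, while GZMB (8.26 and 5.71 RPKM with TPA, 0 in both controls) and IRF7 (3.92 and 7.09 RPKM with TPA, 2.36 and 2.51 RPKM in control) rose. In bulk RNA, a change in the number of cells of a kind and a change in RNA per cell cannot be told apart.

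Of 13 semaphorin genes in the test described below, 9 rose with TPA and 2 fell. Over all genes tested, 28.4% rose and 29.8% fell. Of the 9, SEMA3B, SEMA3F, SEMA4A and SEMA7A reached 1 RPKM with TPA alone, so that a rise was built into their entry. Among those at 1 RPKM or more in all 4 libraries, SEMA4B, SEMA4C, SEMA4D, SEMA6B and SEMA6C rose and SEMA6D fell. SEMA3A and SEMA4G, also at that level, did not pass. Of the 6 plexin genes tested, PLXNB1 and PLXNB2 rose, PLXNC1 fell and 3 did not pass. Summed over the 20 semaphorin genes, the level was 115.1 and 132.7 RPKM in the TPA libraries and 61.36 and 63.0 RPKM in the control libraries, a ratio of means of 1.99. The 9 plexin genes summed to 104.5 and 93.28 RPKM with TPA and to 60.64 and 55.62 RPKM in control, a ratio of 1.70. Both sums were led by a few genes. SEMA4D made up 27.3% and 33.1% of the semaphorin sum with TPA and 32.6% and 34.8% in control, and PLXNB2 made up 60.8% and 57.4% of the plexin sum with TPA and 38.5% and 38.0% in control. By class, class 4 summed to 81.2 ± 11.3 RPKM with TPA and 39.2 ± 1.39 RPKM in control, class 6 to 24.1 ± 2.18 and 14.4 ± 0.148 RPKM, and class 3 to 11.3 ± 0.442 and 5.23 ± 0.562 RPKM (SD, n = 2 each). The A plexins summed to 7.33 ± 0.848 RPKM with TPA and 8.47 ± 0.657 RPKM in control, and the B plexins to 75.5 ± 7.87 and 32.1 ± 2.81 RPKM.

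**Figure D1:**
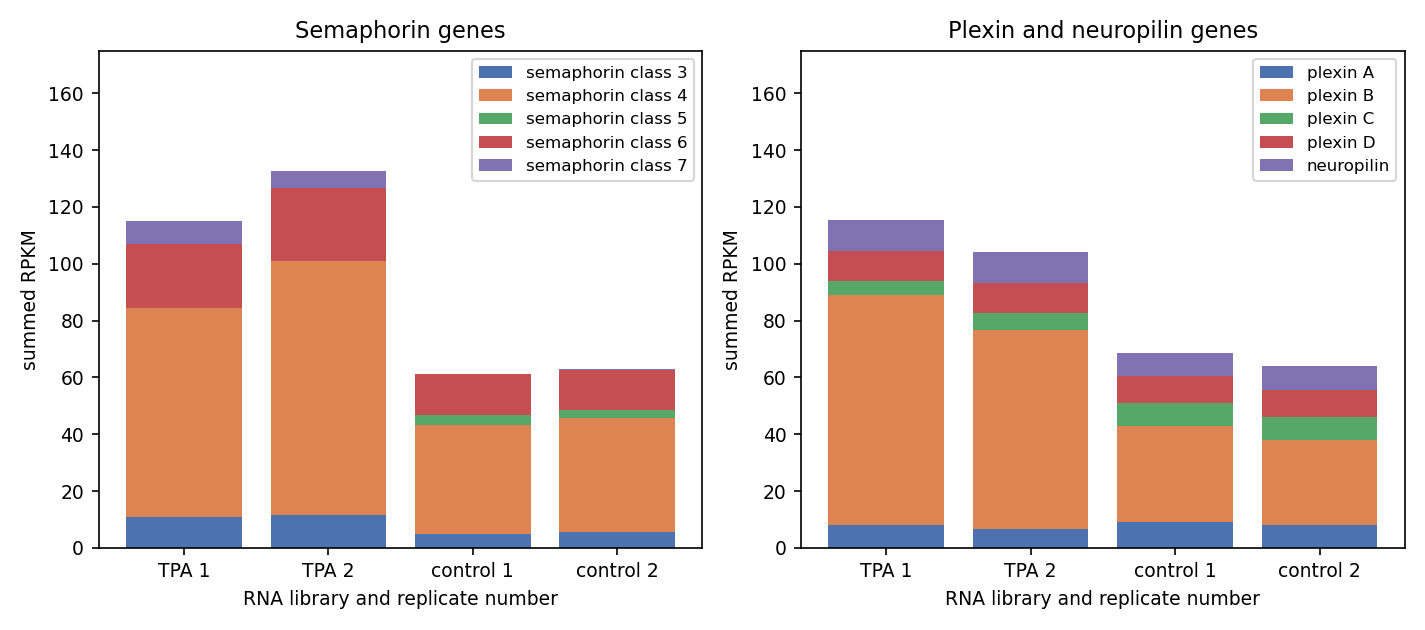
Summed RPKM (vertical axis) of the semaphorin genes by class (left) and of the plexin and neuropilin genes by type (right) in each RNA library, with the TPA libraries left of the control libraries. Class 4 semaphorins and B plexins form the largest blocks in all 4 libraries, and both TPA columns stand above both control columns.

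The test was a limma fit across all genes that reached 1 RPKM in 2 or more of the 4 libraries, on log2(RPKM + 1), with Benjamini-Hochberg adjustment over the 12159 genes tested and a threshold of 0.05. Of the 33 genes, 20 entered this test, of which 12 rose, 3 fell and 5 did not pass. Over all genes tested, 28.4% rose, 29.8% fell and 58.2% changed in either direction, so a change as such was common in these libraries. Of the 20, SEMA3B, SEMA3F, SEMA4A and SEMA7A passed the filter through the TPA libraries alone and SEMA5A through the control libraries alone, so that a difference was built into their entry. The other 15 had at least 1 RPKM in all 4 libraries: 8 rose, 2 fell and 5 did not pass, with a median log2 fold change of 0.38. Among all 10756 genes at that level in every library, 25.2% rose and 29.7% fell, and the median was -0.05. For 13 of the 20 genes both TPA libraries lay above both controls (38.8% of all genes tested), for 4 they lay below (41.0%), and for 3 the libraries overlapped; over all genes tested, 79.8% were separated in either direction. Whether the replicates came from separate cultures is not stated, so the p-values measure only the spread between these libraries, which may be technical.

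**Figure D2:**
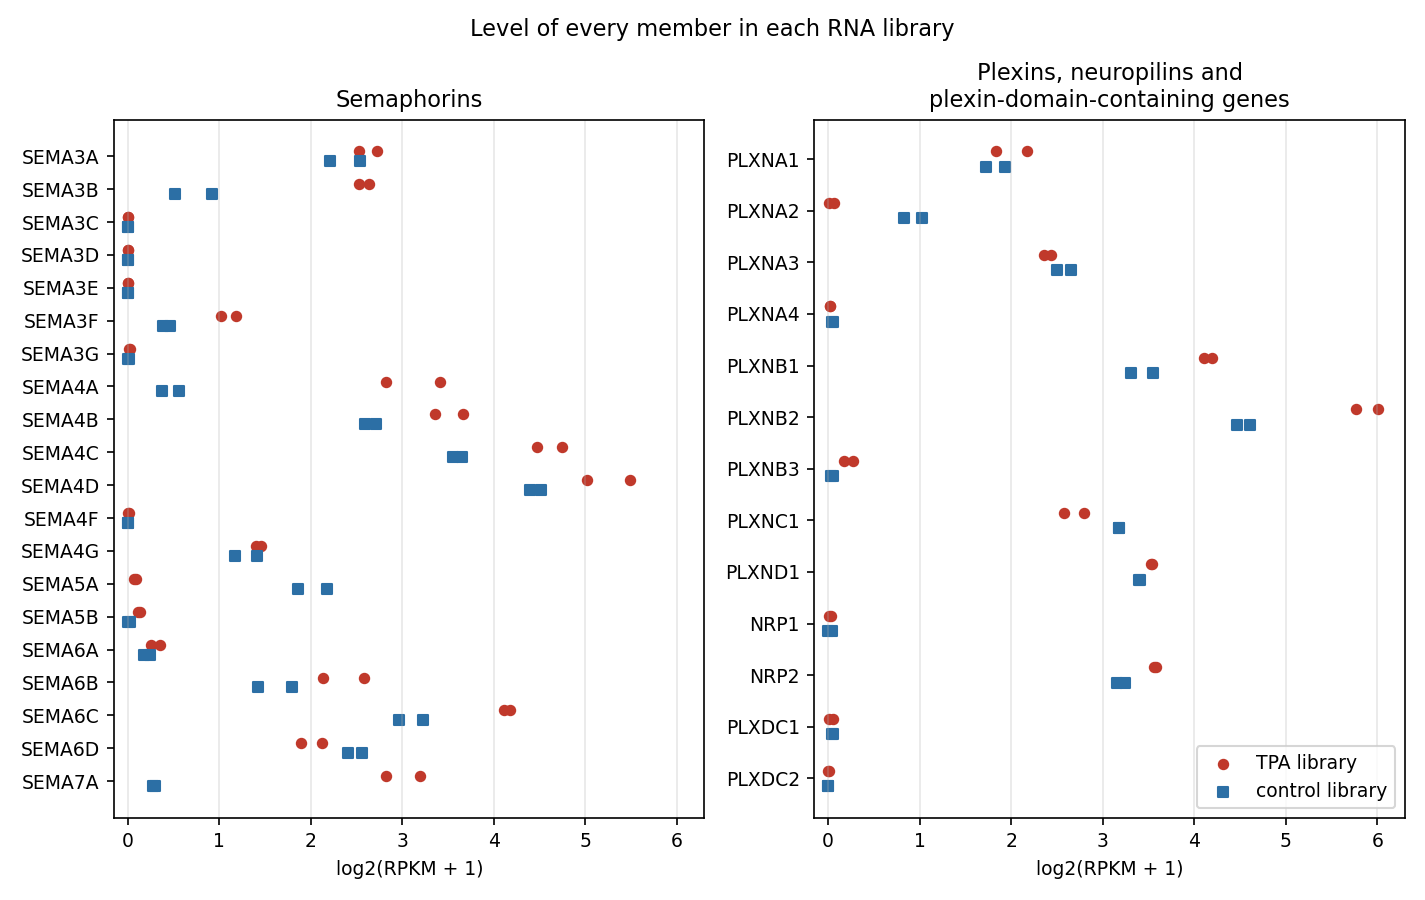
Level of each of the 33 genes, as log2(RPKM + 1) on the horizontal axis, in each TPA library (circles) and each control library (squares). SEMA4D and PLXNB2 have the highest levels of their families in both groups, and 10 genes lie below 0.1 RPKM in all 4 libraries.

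The promoters of 4 genes are shown first. By log2 fold change, SEMA7A had the largest rise among the 20 tested genes and SEMA5A the largest fall. SEMA7A passed the filter through the TPA libraries alone and SEMA5A through the control libraries alone, so that a difference was built into their entry. SEMA4C and PLXNB2 are a ligand and its receptor that both rose. Each line gives the 250 bases before the RefSeq start on the gene's strand (build GRCh38.p14, minus strand for all 4), and capitals mark matches to the motifs searched. The positions are chr15:74433959-74434208 for SEMA7A (the first of 2 starts listed), chr5:9546076-9546325 for SEMA5A, chr2:96870081-96870330 for SEMA4C and chr22:50301670-50301919 for PLXNB2.
SEMA7A: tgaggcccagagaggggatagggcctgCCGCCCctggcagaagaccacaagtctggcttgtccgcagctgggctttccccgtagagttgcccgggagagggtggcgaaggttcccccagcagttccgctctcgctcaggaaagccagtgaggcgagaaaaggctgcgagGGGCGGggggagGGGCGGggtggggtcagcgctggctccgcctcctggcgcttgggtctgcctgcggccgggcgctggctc
SEMA5A: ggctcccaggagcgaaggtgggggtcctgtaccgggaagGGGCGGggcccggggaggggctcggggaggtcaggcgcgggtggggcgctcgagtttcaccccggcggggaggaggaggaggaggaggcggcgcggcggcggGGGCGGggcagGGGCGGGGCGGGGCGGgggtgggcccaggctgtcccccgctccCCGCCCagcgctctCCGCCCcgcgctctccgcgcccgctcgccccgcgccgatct
SEMA4C: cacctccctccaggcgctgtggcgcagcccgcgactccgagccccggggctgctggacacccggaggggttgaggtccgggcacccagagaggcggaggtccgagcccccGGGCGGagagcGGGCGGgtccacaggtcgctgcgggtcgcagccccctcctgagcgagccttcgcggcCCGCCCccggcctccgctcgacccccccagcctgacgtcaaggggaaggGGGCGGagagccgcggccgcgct
PLXNB2: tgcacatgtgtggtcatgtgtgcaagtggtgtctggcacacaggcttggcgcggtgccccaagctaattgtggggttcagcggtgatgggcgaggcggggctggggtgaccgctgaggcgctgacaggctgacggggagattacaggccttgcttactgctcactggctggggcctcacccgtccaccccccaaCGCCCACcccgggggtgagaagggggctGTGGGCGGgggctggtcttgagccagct

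All 4 stretches were rich in G and C, from 66.4% in PLXNB2 to 82.0% in SEMA5A. GC boxes (GGGCGG, on either strand as for every motif) occurred 3 times in SEMA7A, 7 times in SEMA5A, 4 times in SEMA4C and 1 time in PLXNB2. PLXNB2 also held the EGR core GTGGGCG 2 times, 1 of them overlapping its GC box. None of the 4 held the AP-1 motif TGANTCA, the E-box CACGTG, the ETS motif CCGGAAG or the TATA box TATAAA. Of 49 promoters listed for 28 of the 33 genes (SEMA3A, SEMA6A, SEMA6B, NRP1 and PLXDC1 had no entry), 61.2% held a GC box, 10.2% the EGR core and 2.04% the AP-1 motif, against 42.6%, 8.53% and 6.57% of all 35116 promoters. The E-box and the ETS motif each stood in 6.12% of the 49 (6.34% and 8.52% of all), and the TATA box in 2.04% (10.7% of all). All 4 printed stretches, 3 from genes that rose and 1 from the gene that fell most, held GC boxes, and a match is a description of the letters only.

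Class 4 semaphorins, which span the membrane and include the immune semaphorins, were the most abundant class and rose as far as they passed the test. Of 6 genes, 5 were tested, of which 4 rose and SEMA4G did not pass. SEMA4D (9q22.2), which signals through PLXNB1 and, on lymphocytes, through CD72, had 31.488 and 43.959 RPKM in the TPA libraries and 19.989 and 21.912 RPKM in the control libraries. Its log2 fold change was 0.80 (SE 0.176, limma adjusted p = 0.00523). It had the highest level of any semaphorin in both groups, and TPA replicate 2 stood apart from TPA replicate 1 by more than the 2 controls from each other. SEMA4D overlaps SECISBP2 in RefSeq, and SECISBP2 went the other way, with 13.6 and 16.1 RPKM with TPA and 18.6 and 22.3 RPKM in control (log2 fold change -0.44, limma adjusted p = 0.0382).

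SEMA4C (2q11.2), a ligand of PLXNB2, had 21.2 and 25.8 RPKM with TPA and 10.8 and 11.6 RPKM in control, a log2 fold change of 1.0 (SE 0.146, limma adjusted p = 6.15e-04). SEMA4B (15q26.1) had 9.23 and 11.7 RPKM with TPA and 5.57 and 5.02 RPKM in control, a log2 fold change of 0.86 (SE 0.151, limma adjusted p = 0.00174). Both were about doubled in RPKM, with ratios of means of 2.11 for SEMA4C and 1.97 for SEMA4B, and neither gene's groups overlapped. SEMA4A (1q22), known as a costimulator of T cells, was near the bottom in control and well above it with TPA: 9.63 and 6.08 RPKM against 0.293 and 0.471 RPKM. Its ratio of means was 20.6 and its log2 fold change 2.65 (SE 0.199, limma adjusted p = 1.63e-05), which ranked 248 among the 12159 genes by size of rise. The log2(RPKM + 1) scale understates the change of a gene this low in control. SEMA4G (10q24.31) stayed low in both groups, with 1.75 and 1.64 RPKM with TPA and 1.65 and 1.25 RPKM in control. Its groups overlapped, and the 95% interval of its log2 fold change ran from -0.18 to 0.46 (limma adjusted p = 0.418). SEMA4F, whose row is a non-coding transcript of the gene, was at 0.012 RPKM or below in every library.

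SEMA7A (15q24.1), the GPI-anchored class 7 semaphorin and the blood group antigen CD108, had 8.13 and 6.04 RPKM in the TPA libraries and 0.209 and 0.228 RPKM in the control libraries. The control libraries lay close together and far below both TPA libraries, with a ratio of means of 32.4. Its log2 fold change of 2.72 (SE 0.157, limma adjusted p = 4.14e-06) ranked 239 of all genes tested by size of rise. Of its receptors, ITGB1, the beta-1 integrin chain, rose with it (42.3 ± 3.31 RPKM with TPA, 26.2 ± 3.01 RPKM in control, SD, n = 2 each), while PLXNC1 fell, as described with the plexins. ITGA1, the alpha chain that pairs with beta-1 in the integrin known to bind SEMA7A, was at 0.009 RPKM or below in all 4 libraries.

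The secreted class 3 semaphorins were split between 3 genes that were tested and 4 at or near 0. SEMA3B (3p21.31) had 5.21 and 4.76 RPKM with TPA and 0.885 and 0.424 RPKM in control, a ratio of means of 7.62 and a log2 fold change of 1.87 (SE 0.163, limma adjusted p = 3.79e-05). SEMA3F, in the same band, had 1.03 and 1.27 RPKM with TPA and 0.309 and 0.372 RPKM in control, a log2 fold change of 0.68 (SE 0.132, limma adjusted p = 0.00285). SEMA3F lay only just above the filter of 1 RPKM, and only in the TPA libraries. Each of these genes overlaps an antisense RNA, and whether counting used strand is not given in the sources used here. SEMA3B-AS1 had 5.11 and 2.98 RPKM with TPA and 0.697 and 0.391 RPKM in control, close to SEMA3B itself, and SEMA3F-AS1 had 6.20 and 6.82 RPKM with TPA and 4.12 and 4.10 RPKM in control, above SEMA3F in every library. As the use of strand is unknown, the part of antisense reads in the values of SEMA3B and SEMA3F cannot be told. SEMA3A (7q21.11), the classical repellent of axons, had 4.77 and 5.60 RPKM with TPA and 3.63 and 4.82 RPKM in control, with overlapping groups and an interval of the log2 fold change from -0.12 to 0.61 (limma adjusted p = 0.211). SEMA3C was listed at 0 in every library, and SEMA3D, SEMA3E and SEMA3G had at most 0.003, 0.004 and 0.013 RPKM.

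Of the class 5 and class 6 semaphorins, SEMA5A and SEMA6D fell and SEMA6B and SEMA6C rose. SEMA5A (5p15.31), a membrane semaphorin with thrombospondin repeats, had 0.044 and 0.065 RPKM in the TPA libraries and 3.53 and 2.62 RPKM in the control libraries. It was thus close to 0 with TPA, with a mean 56.3 times lower than in control, and its log2 fold change of -1.94 (SE 0.149, limma adjusted p = 1.86e-05) ranked 422 by size of fall. Its relative SEMA5B was below 0.1 RPKM throughout, with 0.076 and 0.097 RPKM with TPA and 0.019 and 0 RPKM in control. In class 6, whose members bind A plexins, SEMA6C (1q21.3) had 16.3 and 17.1 RPKM with TPA and 8.37 and 6.79 RPKM in control. SEMA6C rose with a log2 fold change of 1.05 (SE 0.144, limma adjusted p = 4.41e-04). SEMA6B (19p13.3) had 3.39 and 4.97 RPKM with TPA and 1.68 and 2.48 RPKM in control (log2 fold change 0.75, SE 0.192, limma adjusted p = 0.0109). Without TPA replicate 2 its log2 fold change was 0.53 and it did not pass (limma adjusted p = 0.0577). SEMA6D (15q21.1) went the other way, with 2.70 and 3.34 RPKM with TPA and 4.28 and 4.91 RPKM in control (log2 fold change -0.48, SE 0.143, limma adjusted p = 0.0210). The call of SEMA6D was lost without control replicate 2 (log2 fold change -0.40) and without TPA replicate 1 (-0.36). The fit without control replicate 2 gave infinite prior degrees of freedom, so its p-values cannot be set against the main fit. SEMA6A had 0.195 and 0.277 RPKM with TPA and 0.185 and 0.133 RPKM in control and was not tested.

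**Figure D3:**
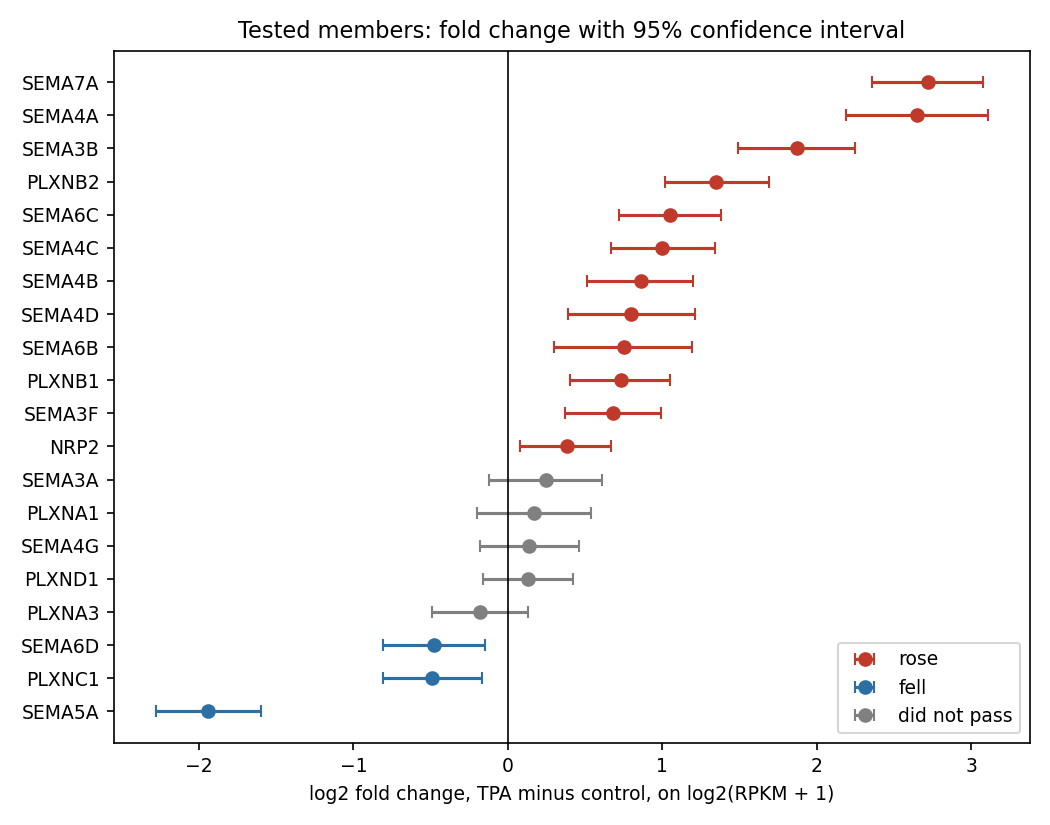
Log2 fold change (TPA minus control, on log2(RPKM + 1)) of the 20 tested genes, with points at the limma estimate and bars for the 95% confidence interval. SEMA7A, SEMA4A and SEMA3B lie at the top, between 1.87 and 2.72, and SEMA5A at the bottom, at -1.94.

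The plexin receptors did not move as a family. PLXNB1 and PLXNB2 rose, PLXNC1 fell, and the tested A plexins and PLXND1 did not pass. PLXNB2 (22q13.33), the receptor of SEMA4C and other class 4 semaphorins, had 63.5 and 53.6 RPKM in the TPA libraries and 23.4 and 21.1 RPKM in the control libraries. Its log2 fold change was 1.35 (SE 0.145, limma adjusted p = 1.18e-04). PLXNB1 (3p21.31), the receptor of SEMA4D, had 17.3 and 16.3 RPKM with TPA and 10.7 and 8.93 RPKM in control, a log2 fold change of 0.73 (SE 0.141, limma adjusted p = 0.00285). Both B plexins were higher in each TPA library than in either control library, and PLXNB2 had the highest level of all 33 genes in every library but control replicate 2, where SEMA4D was slightly above it. The remaining B plexin, PLXNB3, had 0.208 and 0.125 RPKM with TPA and 0.021 and 0.035 RPKM in control and was too low to be tested.

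PLXNC1 (12q22), a receptor of SEMA7A, had 4.96 and 5.93 RPKM in the TPA libraries and 8.03 and 8.04 RPKM in the control libraries, a log2 fold change of -0.49 (SE 0.137, limma adjusted p = 0.0156). The call was lost without TPA replicate 1 (log2 fold change -0.38) and without control replicate 1 or 2 (-0.49 in both, as in the main fit). Fits without a control library gave infinite prior degrees of freedom, so their p-values cannot be set against the main fit. The row of PLXNC1 is a non-coding transcript of the gene and overlaps CEP83, a centriole gene, which had nearly the same values: 4.82 and 5.57 RPKM with TPA and 8.16 and 9.80 RPKM in control. The part of CEP83 reads in the PLXNC1 values was not tested. PLXND1 (3q22.1), a receptor of SEMA3E and SEMA4A, had 10.5 and 10.6 RPKM with TPA and 9.636 and 9.499 RPKM in control. Its groups did not overlap, but the difference was small, with an interval of the log2 fold change from -0.16 to 0.42 (limma adjusted p = 0.402).

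Of the A plexins, which class 3 and class 6 semaphorins use, PLXNA3 (Xq28) had 4.41 and 4.12 RPKM with TPA and 5.30 and 4.65 RPKM in control (interval of the log2 fold change -0.49 to 0.13, limma adjusted p = 0.273). PLXNA1 (3q21.3) had 3.50 and 2.56 RPKM with TPA and 2.82 and 2.30 RPKM in control (interval -0.20 to 0.54, limma adjusted p = 0.387). Both intervals include 0, and the groups of PLXNA1 overlapped. PLXNA3 overlaps LAGE3, which fell (5.504 and 7.531 RPKM with TPA, 15.402 and 14.975 RPKM in control). PLXNA2 (1q32.2) lay just outside the filter, with 0.008 and 0.043 RPKM with TPA and 0.774 and 1.03 RPKM in control. Its control mean was 35.4 times its TPA mean, and it was not tested because only 1 library reached 1 RPKM. PLXNA4 was between 0.012 and 0.034 RPKM in every library.

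Of the neuropilins, the co-receptors of class 3 semaphorins and of vascular endothelial growth factors, only NRP2 was present at a level that could be tested. NRP2 (2q33.3), which binds SEMA3F, had 11.0 and 10.8 RPKM in the TPA libraries and 7.90 and 8.45 RPKM in the control libraries, a log2 fold change of 0.38 (SE 0.128, limma adjusted p = 0.0348). The 2 TPA libraries lay above both controls, but the call was lost when any 1 of the 4 libraries was left out. The log2 fold change then was 0.38 without TPA replicate 2 and 0.37 without TPA replicate 1. It was 0.33 without control replicate 1 and 0.42 without control replicate 2. Fits without a control library gave infinite prior degrees of freedom, so their p-values cannot be set against the main fit. NRP1, the co-receptor of SEMA3A and the plasmacytoid dendritic antigen BDCA4, was between 0 and 0.027 RPKM. PLXDC1 and PLXDC2, receptors known from tumour endothelium, had at most 0.038 and 0.01 RPKM.

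Levels of ligands and receptors were set side by side for 15 textbook pairs. Both partners had at least 1 RPKM in both TPA libraries for 9 pairs and in both control libraries for 4, which were SEMA4C with PLXNB2, SEMA4D with PLXNB1, SEMA4D with CD72 and SEMA6D with PLXNA1. The 5 pairs that reached this level with TPA alone were SEMA3B and SEMA3F with NRP2, SEMA4A with PLXND1, and SEMA7A with PLXNC1 and with ITGB1. In all 5 it was the semaphorin that was under 1 RPKM in control. These semaphorins, SEMA3B, SEMA3F, SEMA4A and SEMA7A, passed the filter at the same 1 RPKM through the TPA libraries alone. The contrast of 9 with 4 pairs thus restates their entry, and SEMA7A and NRP2 are each counted in more than 1 pair. SEMA3A had 5.18 RPKM with TPA and 4.22 RPKM in control on average, while its co-receptor NRP1 averaged 0.0145 and 0.0135 RPKM. By mean level with TPA, SEMA4D, SEMA4C and SEMA6C led the semaphorins in that order with no overlap between neighbours. SEMA4B, SEMA4A and SEMA7A followed, where the libraries of SEMA4A overlapped those of each neighbour, while SEMA4B lay above SEMA7A. In control the same 3 led, followed by SEMA4B, while SEMA4A and SEMA7A were under 1 RPKM. These are levels of RNA and say nothing of binding.

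Other genes of semaphorin signalling were read from lists by role, of which 56 of 81 genes in the table were tested: 25 rose, 11 fell and 20 did not pass, with a median log2 fold change of 0.24 against -0.02 over all genes tested. The counts by list stand against the 28.4% of all genes tested that rose and the 29.8% that fell; whether a list differs from these shares was not tested. MMP14 and MICAL2 passed the filter through the TPA libraries alone, so that a rise was built into their entry. Of 5 receptors outside the plexins that were tested, 4 rose and PTK7 did not pass. ERBB2, a receptor kinase that associates with B plexins, had 204 and 194 RPKM with TPA and 3.14 and 2.58 RPKM in control, a log2 fold change of 5.70 (SE 0.139, limma adjusted p = 1.43e-07) that ranked 15 of all genes. CD72, an inhibitory receptor of B cells that binds SEMA4D, had 28.0 and 32.1 RPKM with TPA and 7.47 and 6.88 RPKM in control (log2 fold change 1.92, limma adjusted p = 1.26e-05). MET and MST1R, other receptor kinases on this list, had at most 0.004 and 0.115 RPKM. Of the 16 receptors listed, 11 were below the filter.

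Of 6 proteases tested that cleave semaphorins, 4 rose, MMP14 among them, and the other 2, ADAM10 and PCSK7, did not pass. MMP14, a membrane metalloproteinase that sheds SEMA4D, had 21.1 and 22.0 RPKM with TPA and 0.315 and 0.336 RPKM in control (log2 fold change 4.09, limma adjusted p = 3.28e-07). ADAM17, a membrane sheddase that also cleaves SEMA4D, had 160.0 and 148 RPKM with TPA and 18.5 and 17.6 RPKM in control (log2 fold change 3.02, limma adjusted p = 1.14e-06). Among other ligands of the neuropilins and plexin-domain-containing proteins, 3 of 5 rose and 1 fell. TGFB1, a cytokine that neuropilins can bind, rose to 89.1 ± 14.5 RPKM with TPA, against 22.9 ± 4.93 RPKM in control (SD, n = 2 each), and CTTN, the cortactin gene, rose with a log2 fold change of 2.33 (limma adjusted p = 4.28e-06). VEGFB, a growth factor that binds NRP1, fell, with 4.52 and 7.03 RPKM with TPA and 38.2 and 30.6 RPKM in control (log2 fold change -2.40, limma adjusted p = 3.08e-05).

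Downstream of the plexins the lists went both ways. Of 8 small GTPases tested, 3 rose and 2 fell, and neither fall passed the test without TPA replicate 1 or without either control replicate. Fits without a control library gave infinite prior degrees of freedom, so their p-values cannot be set against the main fit. RAP1A and RRAS, members of the Ras-like group on which the plexin GTPase-activating domain acts, rose with log2 fold changes of 1.79 (limma adjusted p = 5.28e-05) and 0.80 (adjusted p = 0.00290). Of 8 exchange factors and GTPase-activating proteins, 3 rose and 2 fell. RASA1, the p120 GTPase-activating protein of Ras, had 326 and 371 RPKM with TPA and 20.2 and 22.6 RPKM in control, and SH3BP1, a GTPase-activating protein of Rac that binds PLXND1, had a log2 fold change of 1.29 (limma adjusted p = 7.11e-05). FARP1 and FARP2, FERM-domain exchange factors of which FARP2 acts on Rac below A plexins, fell with log2 fold changes of -1.11 and -1.02 (limma adjusted p = 3.08e-04 and 8.76e-04).

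Of 13 kinases tested, 4 rose and 5 fell. PTK2B, the focal adhesion kinase PYK2, rose to 110.0 ± 7.30 RPKM with TPA, against 32.6 ± 2.19 RPKM in control (SD, n = 2 each). The cofilin kinases split, with LIMK1 up by a log2 fold change of 1.58 (limma adjusted p = 3.20e-05) and LIMK2 at -1.29 (adjusted p = 3.04e-04). CDK5R1, the activator of CDK5, fell to 1.02 and 1.03 RPKM with TPA, against 5.65 and 5.62 RPKM in control. Of 11 MICAL, CRMP and scaffold genes tested, 4 rose and 1 fell. MICAL2, a flavoprotein that oxidises actin, had 28.6 and 25.1 RPKM with TPA and 0.556 and 0.799 RPKM in control (log2 fold change 4.05, limma adjusted p = 5.02e-07), whereas MICAL1 and MICAL3 did not pass. PIP5K1C, a lipid kinase at adhesion sites, rose with a log2 fold change of 1.77 (limma adjusted p = 1.76e-04). DPYSL2, the CRMP2 gene that carries SEMA3A signals in neurons, fell with a log2 fold change of -0.56 (limma adjusted p = 0.0159) and did not pass without TPA replicate 1 (-0.38, adjusted p = 0.0680).

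**Figure D4:**
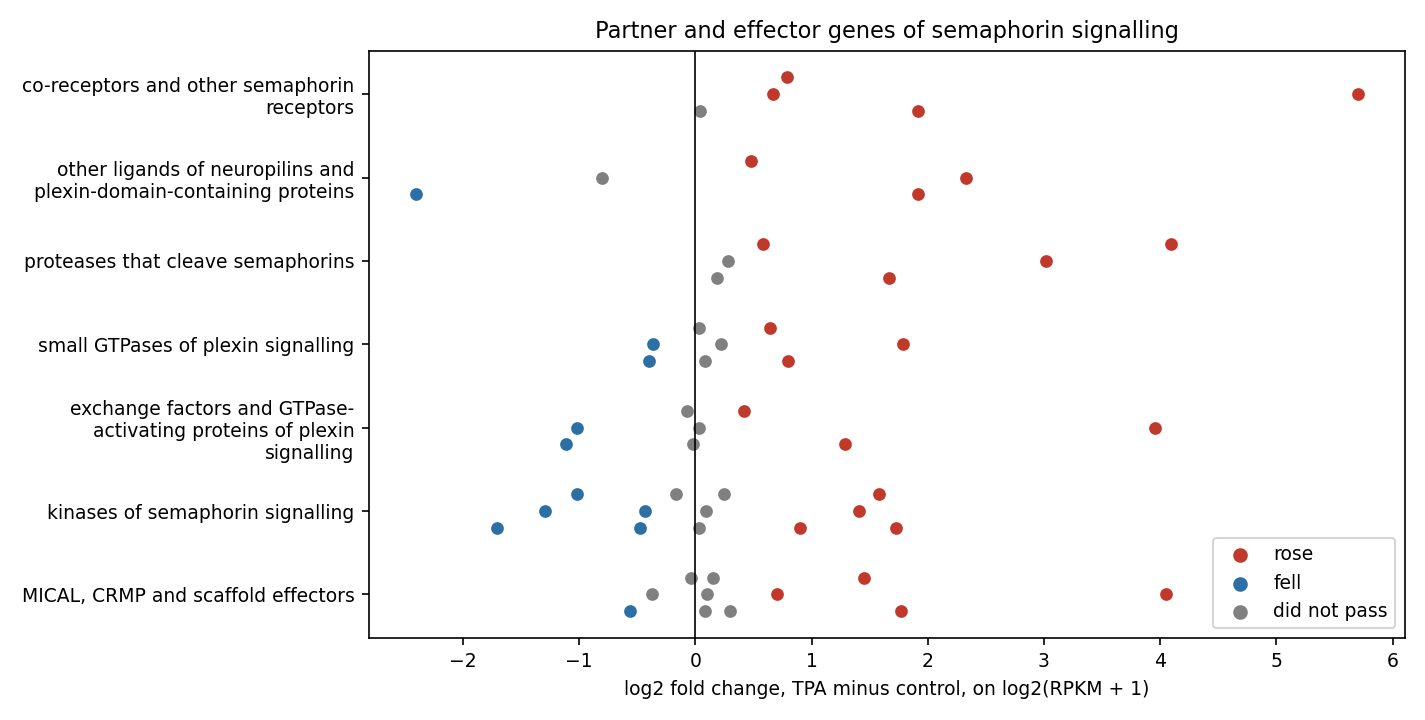
Log2 fold change (TPA minus control, on log2(RPKM + 1), horizontal axis) of the 56 tested partner and effector genes, by list, coloured by the limma call. ERBB2 is farthest to the right at 5.70 and VEGFB farthest to the left at -2.40, and the lists of GTPases, exchange factors and kinases hold genes on both sides of 0.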

How the data were processed

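RNA-seq of 4 libraries of 697 cells (2 TPA, 2 control) was analysed, with groups and replicate numbers taken from the sample titles. The authors deposited 1 RPKM value per gene and library, per the file headers. CASAVA 1.8, Bowtie 1.12, TopHat, SAMtools and HOMER and the build hg19 are named, without role or order, in the submitters' processing notes. The use of strand and of reads with several mapping sites was not given in the sources used here.

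No count model was used on RPKM. The 12159 genes that reached 1 RPKM in 2 or more of the 4 libraries were fitted on log2(RPKM + 1) with limma 3.58.1 in R 4.3.3 (TPA minus control), with variances moderated along a trend in mean level; there were 2 residual degrees of freedom and 5.88 from the prior. P-values were two-sided and adjusted by the Benjamini-Hochberg method. The smallest two-sided p of an exact permutation test of 2 against 2 libraries is 0.333, and none is printed. Relative depth came from the commonest ratio of low values (0.03 to 0.15 RPKM) between libraries. The TPA replicates were more than 10% apart in 64.0%, and the control replicates in 48.5%, of the 1360 genes whose mean was 50 RPKM or above. Values were not rescaled for this, so a difference in scale between replicates enters these shares. The median-of-ratios size factors were 0.941 and 1.04 in the TPA libraries and 0.991 and 1.03 in the control libraries. The fit was also run on simulated data, in which a far smaller share of genes changed than was called here. That run does not measure the error rate of the calls in these data.

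All 33 accessions matched RefSeq, from which overlapping genes and promoters were read. The genes described, the partner lists and the tests were chosen with earlier results of these data known. The rule for naming took every tested member and, of each partner list, the 2 tested genes with the smallest p in each direction. Other partner genes were named after their values were seen, and a few results that the rule would name are not reported here. Alternatives were a pseudocount of 0.1 or 0.5, leaving out the filter or raising it to 5 RPKM, scaling by median of ratios, quantile normalization, limma fitted robustly or with no trend, the replicate number as a block, and each library left out in turn. Figures were drawn with matplotlib 3.10.9.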

Additional observations from a re-analysis of the deposited data

How the results depend on the processing

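Of the 15 semaphorin, plexin and neuropilin genes that rose or fell, 11 kept direction and call under every alternative that could be fitted, and none changed direction. The count that rose was 12, between 10 and 11 with 1 library left out, 13 with no filter and 9 with the filter at 5 RPKM, which leaves 11 of the 20 genes in the test. The count that fell was 3, against 1 with the filter at 5 RPKM, where SEMA5A and SEMA6D were not tested, and between 1 and 3 with 1 library left out (2 when control replicate 1 was missing, and 1 when control replicate 2 or TPA replicate 1 was). With no filter PLXNC1, SEMA6B and SEMA6D did not pass (adjusted p = 0.0506, 0.0822 and 0.0840), SEMA5B and PLXNB3 rose (adjusted p = 0.0247 and 0.0361) and PLXNA2 fell (-0.89, adjusted p = 0.00437), with read numbers unknown. SEMA4G, not called, went to -0.04 after quantile normalization (adjusted p = 0.816). The replicate numbers are not stated to pair libraries; the replicate block, with 12 rises and 3 falls, changed no call of these genes, and 8234 genes of the whole table changed with it, against 7075 without. The deviations of same-numbered libraries had a correlation across genes of 0.361. When 1 control library was left out, the fit gave infinite prior degrees of freedom, so those p-values cannot be set against the others. A lone library is assumed to vary like the other group. Partner genes and summed levels were recomputed under alternatives chosen after seeing the data, and no partner gene named for its call changed direction.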
